A study of Mus musculus with 6 samples.

Results

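The 9 genes described here encode enzymes that make or use aspartate, glutamate, arginine and proline: *Ass1*, *Asl*, *Arg2*, *Got1*, *Got2*, *Glud1*, *Gpt2*, *Pycr1* and *Aldh18a1*. They were chosen by name, as the argininosuccinate synthase *Ass1* and its metabolic neighbours, and each matched 1 of the 51499 loci in the count table. The study compared WT MEFs, fibroblasts grown from mouse embryos, at 72 h after transfection with scrambled siRNA (Scr), the control, or with *Yme1l* siRNA, with 3 independent cultures in each group. *Yme1l* encodes YME1L, a protease of the mitochondrial inner membrane that faces the intermembrane space. According to the methods, WT MEFs came from *Yme1l* loxP/loxP animals and carried SV40 large T antigen. Individual clones were expanded after transduction with Cre recombinase, and genotyping then identified the WT (loxP/loxP) cells. The labels instead give 3T3 immortalization. The methods describe other WT MEF lines too, and do not say which line received these siRNAs. Both groups are labelled WT MEF, and the list of siRNA sequences was not used here. RNA was selected on poly(A) and read as stranded libraries.

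These enzymes form a connected set of reactions. The aspartate transaminases make aspartate from oxaloacetate and glutamate, GOT2 in mitochondria and GOT1 in the cytosol. Aspartate supplies carbon and nitrogen for pyrimidine and purine synthesis, and it donates a nitrogen to arginine through ASS1 and ASL. Glutamate is the common partner of these reactions, since it links to 2-oxoglutarate through glutamate dehydrogenase and alanine transaminase, and it is the starting point of proline synthesis. Fibroblasts need proline in quantity because collagen is rich in it.

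Libraries held between 37260605 and 45205207 counts, and 14499 loci had enough counts to be tested. *Yme1l1*, the targeted gene, was counted 7380, 6180 and 7199 times in Scr libraries and 1403, 1019 and 1898 times in knockdown libraries, a log2 fold change of -2.36 (SE 0.20, adjusted p = 3.87e-05, edgeR). Among 8 fibroblast markers, 7 were above 1 CPM, the unit of counts scaled for library size used throughout, and *Thy1* had at most 1 count. The summed level of these markers was 33450 to 40600 CPM in Scr cultures and 17960 to 22400 CPM after *Yme1l* siRNA, and 6 of the 7 tested were lower. Of 12 markers of epithelial, blood, endothelial, liver and muscle cells, 5 were at 0 in every library (*Krt5*, *Adgre1*, *Alb*, *Ttr* and *Myod1*). Their summed level was 46.5 to 57.1 CPM in Scr cultures and 32.8 to 63.4 CPM after *Yme1l* siRNA, and *Cd68* alone held 42.6 to 53.0 CPM of the former and 25.7 to 58.2 CPM of the latter. Without *Cd68* the sums were 3.79 to 4.01 and 5.22 to 7.10 CPM. The part of these marker levels in the results below was not tested. In bulk RNA, fewer cells that express a gene and less RNA of it per cell cannot be told apart.

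All 9 genes passed the filter on low counts. After *Yme1l* siRNA 3 of them were higher (*Ass1*, *Arg2* and *Got2*), 3 were lower (*Asl*, *Gpt2* and *Pycr1*) and 3 did not pass the test (*Got1*, *Glud1* and *Aldh18a1*), at an adjusted p under 0.05. Across all loci tested, 28.4% were called higher and 29.6% lower, so the share of members called in each direction was close to that of the whole transcriptome. At 6 of the 9 genes the 2 groups of cultures were fully separated, as they were at 65.4% of all loci tested. The median log2 fold change of the 9 genes was 0.02, and that of all loci tested was 0.01. The members did not move together, and their mix of calls was close to that of all loci tested. Within each of the 4 branches, arginine, aspartate, glutamate and proline, adjoining enzymes differed in direction or in whether they passed the test. The plots of levels by culture and of fold changes show these calls. A gene that passed beside a gene that did not is no test of the difference between them. How often other pairs of loci differ in call was not computed, so this is not shown to be particular to these branches.

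**Figure D1:**
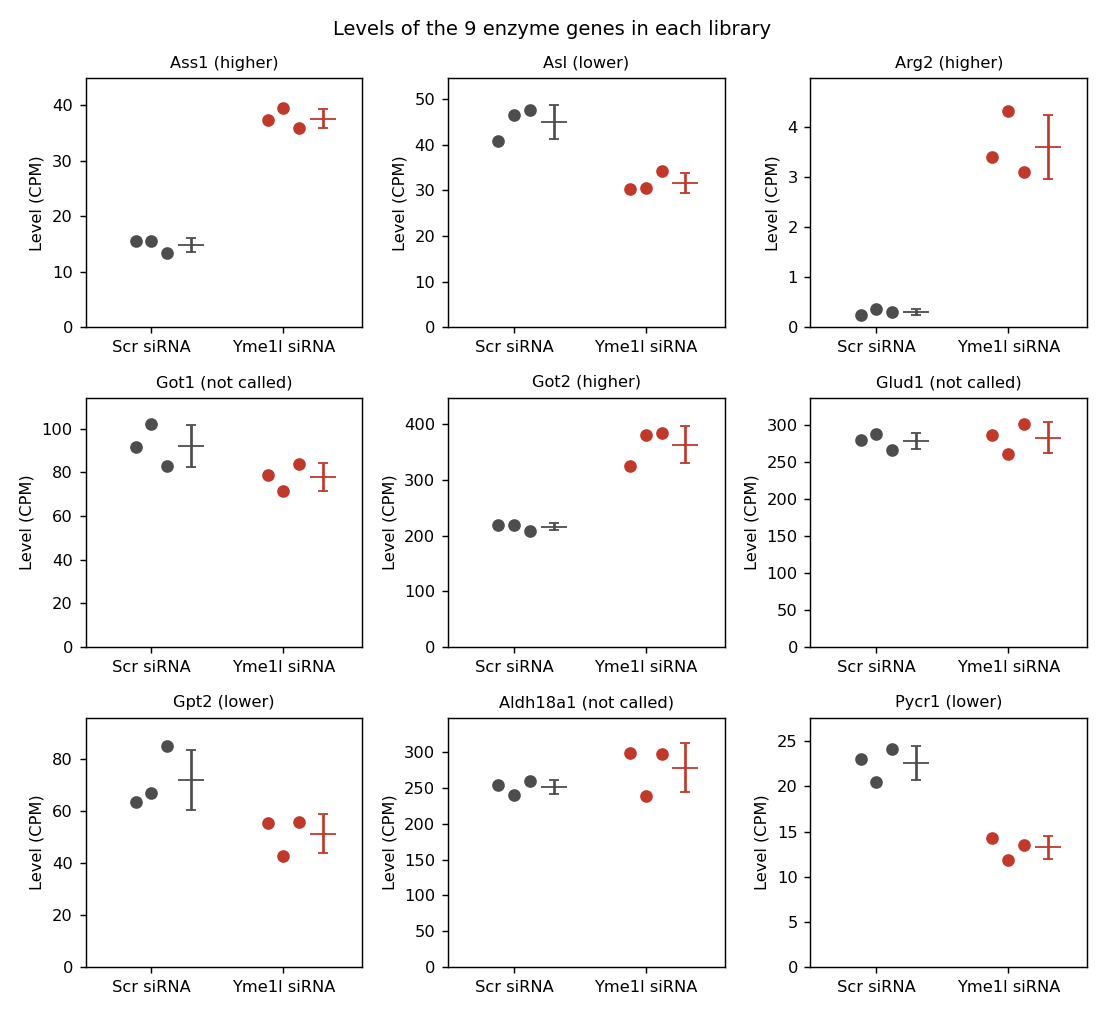
Level of each of the 9 enzyme genes, in CPM on linear axes that differ between panels, in 3 Scr and 3 Yme1l siRNA cultures. Each point is a culture, and the bar with its error is the mean ± SD. Scr cultures are grey and Yme1l siRNA cultures red, each panel title gives the call after *Yme1l* siRNA, and the groups overlap only in the 3 panels titled not called.

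The arginine branch held the largest fold change among the members, that of *Arg2*, and the smallest adjusted p (edgeR), that of *Ass1*. *Ass1* encodes argininosuccinate synthase, which joins citrulline to aspartate and is the rate-limiting step of arginine synthesis outside the liver. It lies on chromosome 2 of GRCm38 from 31470207 to 31520672 on the plus strand (XLOC_022709, ENSMUSG00000076441.9). *Ass1* stood at 15.5, 15.6 and 13.4 CPM in the Scr cultures and at 37.4, 39.5 and 36.0 CPM in the Yme1l siRNA cultures. The groups lay far apart, and every knockdown culture had more than any Scr culture. The means were 14.9 ± 1.24 and 37.6 ± 1.75 CPM (SD, n = 3 each), a 2.53-fold difference. The log2 fold change was 1.34 (SE 0.09, 95% confidence interval 1.14 to 1.54, adjusted p = 1.19e-05 in the quasi-likelihood test of edgeR), higher than at 94.6% of the loci tested.

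A near-identical copy bears on this value. *Gm5424*, an *Ass1*-like sequence elsewhere in the genome, is 99.5% identical to the *Ass1* transcript over 1240 bases, so reads from either gene can be assigned to the other. Its counts were 253, 200 and 222 in Scr libraries and 577, 630 and 552 in knockdown libraries, with a log2 fold change of 1.29 (SE 0.11, adjusted p = 3.23e-05, edgeR). The copy held between 25.8% and 28.1% of the joint counts in the 6 libraries, so both loci rose in nearly the same proportion. Summed over both loci, the level was 21.4, 21.2 and 18.7 CPM in Scr cultures and 50.4, 54.0 and 49.1 CPM after *Yme1l* siRNA, with a log2 fold change of 1.33 (adjusted p = 9.11e-06, edgeR). Which of the 2 loci the reads came from cannot be told from these counts.

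*Asl* encodes argininosuccinate lyase, the next enzyme, which splits argininosuccinate into arginine and fumarate. It lies on chromosome 5 from 130011258 to 130029247 on the minus strand (XLOC_034374). Its level was 40.8, 46.5 and 47.5 CPM in Scr cultures and 30.3, 30.5 and 34.2 CPM in Yme1l siRNA cultures. Here the order was the opposite of that of *Ass1*, with all 3 knockdown cultures below all 3 Scr cultures. The fold change was -0.51 on the log2 scale (SE 0.09, 95% confidence interval -0.70 to -0.31, adjusted p = 0.00112, edgeR). The ratio of *Ass1* to *Asl* counts, 0.381, 0.336 and 0.283 in Scr cultures, was 1.23, 1.295 and 1.05 after *Yme1l* siRNA. In every knockdown culture *Ass1* had more counts than *Asl*, and in every Scr culture it had fewer. The ratio differed by 3.60-fold (log2 difference 1.85). In a two-sided exact permutation test this gave p = 0.1, the smallest that 3 against 3 cultures allow, and 0.1 after adjustment over the 4 ratios examined between members.

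*Arg2* encodes the mitochondrial arginase, which cuts arginine into ornithine and urea. It lies on chromosome 12 from 79130777 to 79156301 on the plus strand (XLOC_009369). Its counts were 11, 13 and 13 in Scr libraries and 151, 188 and 131 in knockdown libraries. These counts correspond to 0.308 ± 0.0531 and 3.61 ± 0.635 CPM (SD, n = 3 each), an 11.8-fold difference in level with no overlap. The log2 fold change was 3.55 (SE 0.25, 95% confidence interval 2.99 to 4.11, adjusted p = 1.55e-05, edgeR), higher than at 99.6% of loci. Although its fold change was the largest of the 9 genes, *Arg2* had the lowest level of them in both groups. Exons of *Arg2* overlap those of *Vti1b* and *Gm48780* on the other strand. The locus that the authors give for *Arg2* runs on to 79172667 and takes in *Vti1b*. Use of the strand in counting was not given in the sources used here. *Vti1b*, which encodes a SNARE protein, had between 1795 and 2276 counts, and its log2 fold change was -0.25 (SE 0.07, adjusted p = 0.00963, edgeR), so the 2 loci moved in opposite directions.

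**Figure D2:**
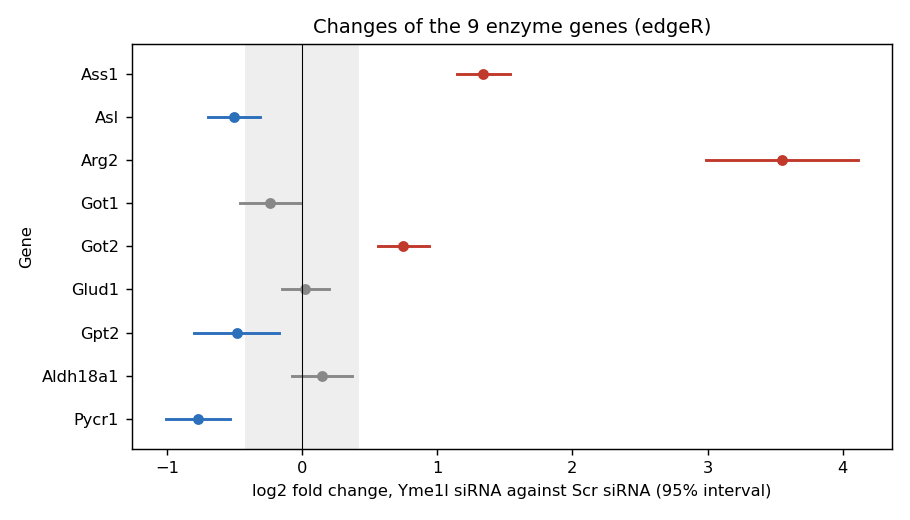
Log2 fold change of the 9 enzyme genes, Yme1l siRNA against Scr, with 95% confidence intervals from edgeR (n = 3 cultures per group). Red marks genes called higher, blue lower and grey not called, and the grey band spans the 25th to 75th percentile of all loci tested. *Arg2*, at 3.55, lies farthest from 0, and *Glud1*, at 0.02, lies nearest to it.

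The aspartate transaminases, a mitochondrial and a cytosolic enzyme that together carry reducing equivalents in the malate-aspartate shuttle, differed. *Got2*, which encodes the mitochondrial enzyme (XLOC_044308, chromosome 8, 95864134 to 95888547, minus strand), had 219.9, 219.7 and 209 CPM in Scr cultures and 325, 382 and 384 CPM after *Yme1l* siRNA. The Scr cultures were close to each other, and the lowest knockdown culture lay well above them. *Got2* rose by 0.75 on the log2 scale (SE 0.08, 95% confidence interval 0.56 to 0.94, adjusted p = 0.000119, edgeR). A pseudogene copy, *Got2-ps1*, is 99.1% identical over 1293 bases and took between 5.10% and 6.11% of the joint counts. Counts summed over *Got2* and its 4 copies gave the same log2 fold change, 0.75 (adjusted p = 0.000103, edgeR). The exons of *Got2* also overlap *Gm45760* on the other strand, which had at most 2 counts.

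*Got1*, which encodes the cytosolic enzyme (XLOC_022165, chromosome 19, 43499752 to 43524605, minus strand), stood at 91.5, 102 and 82.9 CPM in Scr cultures and at 78.8, 71.3 and 84.0 CPM after *Yme1l* siRNA. The groups overlapped, since knockdown culture 3 had slightly more than Scr culture 3. The log2 fold change was -0.24 (SE 0.10, 95% confidence interval -0.46 to -0.02), which did not pass the test (adjusted p = 0.0606, edgeR). Without Scr culture 3 it was -0.31 (adjusted p = 0.0254) and without Yme1l siRNA culture 3 it was -0.30 (adjusted p = 0.0302), so the call depended on these cultures. The ratio of *Got1* to *Got2* counts was 0.416, 0.464 and 0.396 in Scr cultures and 0.242, 0.187 and 0.219 after *Yme1l* siRNA. It was 1.98-fold lower in the knockdown cultures, without overlap (exact permutation test, two-sided, p = 0.1, adjusted 0.1).

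Glutamate dehydrogenase, encoded by *Glud1*, converts glutamate to 2-oxoglutarate and ammonia in mitochondria. *Glud1* (XLOC_013924, chromosome 14, 34310727 to 34345265, plus strand) had 281, 289 and 267 CPM in Scr cultures and 286, 261 and 302 CPM in Yme1l siRNA cultures. The groups were interleaved. The log2 fold change was 0.02 (SE 0.08, adjusted p = 0.815, edgeR), and its 95% confidence interval of -0.15 to 0.20 bounds the change that these cultures allow. A copy, *Glud-ps*, 97.6% identical over 656 bases, held between 0.94% and 1.15% of the joint counts.

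*Gpt2* encodes the mitochondrial alanine transaminase, which passes nitrogen from glutamate to pyruvate. *Gpt2* (XLOC_043098, chromosome 8, 85492576 to 85527560, plus strand) stood at 63.5, 67.1 and 85.1 CPM in Scr cultures and at 55.5, 42.8 and 55.9 CPM after *Yme1l* siRNA. The groups did not overlap, though the spread within each was wider than for most of the other members, with Scr culture 3 above the rest. *Gpt2* fell by 0.48 on the log2 scale (SE 0.14, 95% confidence interval -0.80 to -0.17, adjusted p = 0.0151, edgeR). The ratio of *Gpt2* to *Glud1* counts was 0.226, 0.233 and 0.318 in Scr cultures and 0.194, 0.164 and 0.185 after *Yme1l* siRNA, 1.42-fold lower (exact permutation test, two-sided, p = 0.1, adjusted 0.1).

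In the proline branch the first enzyme did not pass the test and the last was lower. *Aldh18a1* encodes P5C synthase, which turns glutamate into the precursor of proline. *Aldh18a1* (XLOC_022137, chromosome 19, 40550257 to 40588463, minus strand) had 254, 240.1 and 259.9 CPM in Scr cultures and 299, 239 and 297 CPM in Yme1l siRNA cultures. Knockdown cultures 1 and 3 were above all Scr cultures and culture 2 was below them. The log2 fold change was 0.15 (SE 0.10, 95% confidence interval -0.08 to 0.37, adjusted p = 0.227, edgeR), and without Yme1l siRNA culture 2 it was 0.25 (adjusted p = 0.0164).

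*Pycr1* encodes a mitochondrial P5C reductase, which completes proline synthesis. *Pycr1* (XLOC_008741, chromosome 11, 120635712 to 120643769, minus strand) stood at 23.0, 20.5 and 24.2 CPM in Scr cultures and at 14.3, 11.9 and 13.5 CPM after *Yme1l* siRNA. All knockdown cultures were clearly lower. *Pycr1* fell by 0.77 on the log2 scale (SE 0.10, 95% confidence interval -1.005 to -0.53, adjusted p = 0.000349, edgeR), the largest fall among the 9 genes. The ratio of *Pycr1* to *Aldh18a1* counts was 0.0906, 0.0853 and 0.0930 in Scr cultures and 0.0479, 0.0499 and 0.0455 after *Yme1l* siRNA. The spread of this ratio within groups was the narrowest of the 4 ratios, and it was 1.88-fold lower after *Yme1l* siRNA (exact permutation test, two-sided, p = 0.1, adjusted 0.1).

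**Figure D3:**
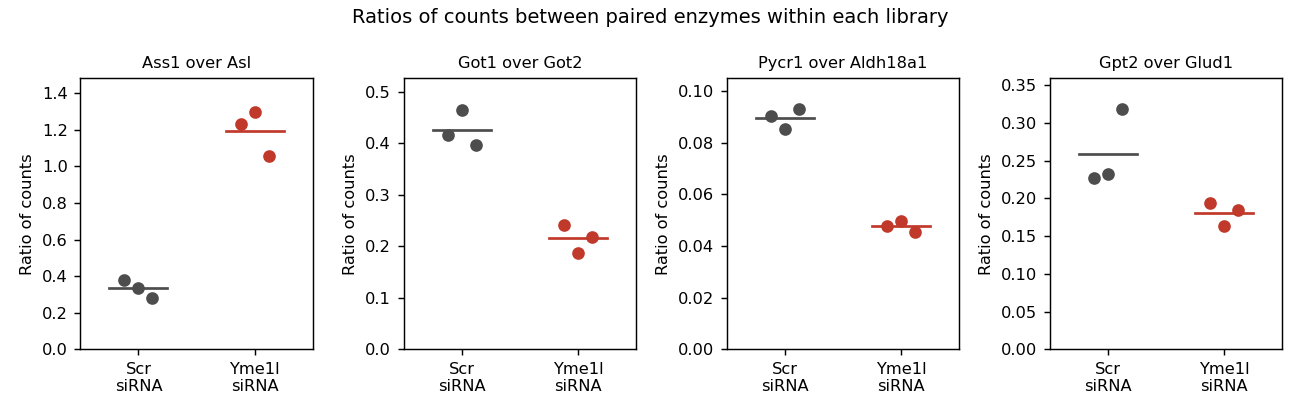
Ratio of counts between pairs of enzyme genes in the same pathway, in 3 Scr and 3 Yme1l siRNA cultures. Points are cultures, grey for Scr and red for Yme1l siRNA, lines are means, and the ratios are not corrected for gene length. The groups do not overlap in any panel: *Ass1* over *Asl* was 3.60-fold higher after *Yme1l* siRNA, and the other ratios were lower. Each ratio holds a gene that was itself called, and the share of separated ratios among other gene pairs was not computed.

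Levels of the 9 genes can be set against each other only per length. In the authors' group FPKM, which have no replicate error, *Glud1* was highest in Scr cultures at 112, followed by *Got2* at 89.4, *Aldh18a1* at 76.0, *Got1* at 49.3, *Asl* at 30.6, *Gpt2* at 21.3, *Pycr1* at 13.5, *Ass1* at 9.52 and *Arg2* at 0.240. After *Yme1l* siRNA *Got2* came first, at 150.3 FPKM, and *Glud1* second, at 119. *Ass1* passed from the eighth place to the fifth, at 24.1 FPKM, above *Asl* at 20.6 FPKM. *Arg2* remained last, at 2.80 FPKM.

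On a scale with replicate error, CPM per kilobase of annotated exon, some neighbours in this order were not separated. *Glud1* at 66.2 ± 2.55 and *Aldh18a1* at 61.8 ± 2.503 differed by less than the sum of their SDs in Scr cultures (n = 3), and so did *Ass1* at 6.16 ± 0.512 and *Pycr1* at 5.73 ± 0.481. After *Yme1l* siRNA the same held among the 3 highest genes, *Got2* at 75.4 ± 6.88, *Aldh18a1* at 68.3 ± 8.43 and *Glud1* at 67.3 ± 4.94. *Ass1* at 15.6 ± 0.725 then stood above *Asl* at 6.55 ± 0.448 by more than these SDs, whereas in Scr cultures *Asl* at 9.30 ± 0.751 stood above *Ass1*. These SDs measure the spread between cultures and not the choice of length, 2414 bases for *Ass1* and 4831 for *Asl*. In FPKM these genes lay closer together after *Yme1l* siRNA, at 24.1 and 20.6. The order of some neighbours differed between the scales, also where these SDs set them apart. In Scr cultures *Got2* was above *Aldh18a1* in FPKM, but at 44.8 ± 1.25 it was below it in CPM per kilobase. *Asl* was above *Gpt2* in FPKM in both groups and below it in CPM per kilobase. The cause was not tested.

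Stretches of sequence before the gene starts are shown for the 4 members in which a search found the C/EBP-ATF element, a site for factors of the amino acid response, or the E-box, a site for MYC-like factors. RefSeq windows on GRCm38.p6, from 250 bases before to 50 bases after each start, were held for 7 of the 9 genes, and not for *Asl* and *Arg2*. Capitals mark TGATGNAA or CACGTG read on either strand. The 3 longer stretches end at the base before the most upstream annotated start, and that of *Ass1* is centred on its match. They are *Pycr1* at chr11:120643770-120643899 (minus strand), *Got1* at chr19:43524606-43524735 (minus strand), *Aldh18a1* at chr19:40588464-40588593 (minus strand) and *Ass1* at chr2:31470222-31470251 (plus strand).
Pycr1: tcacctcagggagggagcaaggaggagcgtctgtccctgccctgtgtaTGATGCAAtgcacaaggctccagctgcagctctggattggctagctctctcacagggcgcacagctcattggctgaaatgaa
Got1: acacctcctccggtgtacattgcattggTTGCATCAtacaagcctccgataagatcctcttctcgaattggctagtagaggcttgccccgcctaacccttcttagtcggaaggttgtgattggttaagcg
Aldh18a1: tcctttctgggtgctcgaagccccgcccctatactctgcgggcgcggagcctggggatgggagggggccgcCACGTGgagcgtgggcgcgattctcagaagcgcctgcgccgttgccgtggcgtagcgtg
Ass1: cgcgcccgtcccCACGTGtcccaggttcct

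The TGATGNAA match of *Pycr1*, a gene that fell, begins 103 bases before the RefSeq start. That of *Got1*, which did not pass the test, begins 102 bases before it and reads on the other strand. Of 32851 mouse promoter windows of this length, 4.0% hold TGATGNAA. The CACGTG matches begin 36 bases before the RefSeq start in *Ass1*, which rose, and 59 bases before it in *Aldh18a1*, which did not pass the test, and 7.2% of windows hold CACGTG. In GENCODE the *Ass1* gene starts 63 bases farther upstream, so that its match lies 27 bases after that start. CCAAT, searched in the same way on both strands and with no match that overlaps the letters in capitals, was found 6 times in the window of *Got1* and 2 times in that of *Pycr1*, and 37.4% of windows hold it. The windows of *Got2*, *Glud1* and *Gpt2* held none of the 3 motifs. In GENCODE the *Got2* gene starts 146 bases before its RefSeq start, so fewer bases before that start were searched. Each of the motifs in capitals was thus held by 1 member that was called and 1 that was not, and a match shows only that these letters are present.

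Around the 9 enzymes, 53 genes of the same pathways were listed, and 42 had enough counts to be tested. Of these, 20 were higher, 14 lower and 8 not called, with a median log2 fold change of 0.20, against 28.4% higher, 29.6% lower and a median of 0.01 over all loci tested. These shares are the background for each group below. Among these neighbours the proline genes had calls in 1 direction, and the other 3 groups had calls in both. The proline list leaves out the members, of which *Pycr1* was called lower. In the arginine list the lower calls rest on 1 gene, and that count moved in 6 of 16 alternatives.

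In the arginine, urea cycle and polyamine group 6 of 14 genes were tested, with 3 higher, 1 lower and 2 not called, and a median log2 fold change of 0.67. The liver enzymes of the urea cycle were nearly absent: *Otc* had 0 counts, *Cps1* at most 7 and *Arg1* at most 6, while *Arg2* had 131 to 188 after *Yme1l* siRNA. *Slc7a1*, which encodes the cationic amino acid transporter that takes up arginine, rose by 0.96 on the log2 scale (SE 0.11, adjusted p = 0.000166, edgeR). *Odc1*, encoding ornithine decarboxylase, which uses the ornithine made by arginase, rose by 0.89 (log2, SE 0.07, adjusted p = 2.57e-05, edgeR), from a mean of 184 to a mean of 342 CPM. *Slc25a15*, the mitochondrial ornithine carrier, was the gene called lower, with a log2 fold change of -0.42 (SE 0.13, adjusted p = 0.0237, edgeR). That call was lost without Scr culture 1 or 2 or Yme1l siRNA culture 1 or 2, with adjusted p of 0.0558 to 0.0930. *Nos2*, a nitric oxide synthase chosen for mention after its value was seen, had a log2 fold change of 1.07 (SE 0.35, adjusted p = 0.0295, edgeR) at a mean of 0.485 CPM after *Yme1l* siRNA. Its counts were 14, 8 and 6 in Scr libraries and 21, 22 and 20 in knockdown libraries. It thus passed the filter on low counts through the knockdown libraries, and its call is no support for a rise. It is 1 of the 3 genes counted as higher in this group and enters the group median. The *Nos2* call was lost in 7 of 15 alternatives, among them DESeq2 and the omission of any library other than that of Scr culture 1 (highest adjusted p 0.0955).

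In the aspartate and asparagine group all 15 genes were tested, with 6 higher, 7 lower and 2 not called, and a median log2 fold change of -0.14. The number lower was 3 without Scr culture 2 or Yme1l siRNA culture 1, and 4 without Scr culture 1. The 7 include *Slc25a12*, whose call was lost in 15 of 16 alternatives. *Slc25a11*, the oxoglutarate carrier of the malate-aspartate shuttle, fell from 91.2 ± 0.412 to 61.5 ± 0.963 CPM, a log2 fold change of -0.57 (SE 0.06, adjusted p = 9.37e-05, edgeR). Its exons overlap *Rnf167* on the other strand. *Adsl*, encoding adenylosuccinate lyase of purine synthesis, rose by 0.65 (log2, SE 0.08, adjusted p = 0.000235, edgeR), and *Asrgl1*, an asparaginase, had a log2 fold change of -0.80 (SE 0.13, adjusted p = 0.000815, edgeR). *Mdh2*, the mitochondrial malate dehydrogenase and the gene of highest CPM in the group, did not pass the test at a log2 fold change of -0.14 (SE 0.09, adjusted p = 0.182, edgeR), but did without Yme1l siRNA culture 3 (-0.23, adjusted p = 0.0257). Among genes chosen after their values were seen, *Asns*, which makes asparagine from aspartate, had a log2 fold change of 0.51 (adjusted p = 0.00238), and *Cad*, which feeds aspartate into pyrimidines, had 0.54 (adjusted p = 0.00438).

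In the glutamine and glutamate group 14 of 15 genes were tested, with 6 higher, 6 lower and 2 not called, and a median log2 fold change of -0.10. *Psat1*, the transaminase of serine synthesis, which uses glutamate, rose by 1.18 (log2, SE 0.11, adjusted p = 4.41e-05, edgeR), from a mean of 204 to a mean of 461 CPM. *Slc25a22*, a mitochondrial glutamate carrier, rose by 0.95 (log2, SE 0.10, adjusted p = 0.000104, edgeR). *Bcat1*, the cytosolic branched-chain transaminase, rose by 0.79 (log2, SE 0.11, adjusted p = 0.000443, edgeR), and its exons overlap *Gm26666* on the other strand. The glutamine transporter *Slc38a2*, the gene of highest CPM in the group, rose by 0.27 (log2, SE 0.07, adjusted p = 0.00982, edgeR), with a call lost without Scr culture 2 (adjusted p = 0.0511) or Yme1l siRNA culture 1 (adjusted p = 0.0508). Glutamine synthetase, *Glul*, chosen after its value was seen, had a log2 fold change of -0.49 (adjusted p = 0.00194, edgeR) and overlaps *Teddm2* on the other strand.

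In the proline group 7 of 9 genes were tested, with 5 higher and 2 not called, and a median log2 fold change of 0.34. *Oat*, encoding the ornithine transaminase that links arginase to proline, rose by 0.34 (log2, SE 0.06, adjusted p = 0.00202, edgeR). *Aldh4a1*, which encodes the P5C dehydrogenase of proline breakdown, had a log2 fold change of 0.43 (SE 0.08, adjusted p = 0.00146, edgeR), at a locus that joins 4 gene names. *P4ha2*, a collagen prolyl hydroxylase subunit, rose by 0.73 (log2, SE 0.14, adjusted p = 0.00212, edgeR), and *P4ha1*, the gene of highest CPM in the group, did not pass the test (-0.01, SE 0.11, adjusted p = 0.926, edgeR). *Pycr3*, which encodes a cytosolic P5C reductase and was chosen after its value was seen, had a log2 fold change of 0.23 (adjusted p = 0.0277, edgeR), a call lost on leaving out any of the Scr cultures or Yme1l siRNA culture 3 (adjusted p up to 0.0853). *Prodh* and *Prodh2* were not tested.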

How the data were processed

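RNA-Seq libraries of 3 Scr and 3 Yme1l siRNA cultures were grouped by their titles, and all per-library columns were mapped. The authors aligned reads to GRCm38 (HISAT2 2.0.4, StringTie 1.3.3, Cuffdiff 2.2.1, per the submitters' processing notes and the methods). The deposited counts are raw reads per locus. The program that counted them, and its use of strand and of reads with several matches, were not given in the sources used here. The authors' FPKM are group values that combine 3 libraries. The authors' own fold changes, test statistics, p-values and q-values were not used.

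From the counts, edgeR 4.0.16 (R 4.3.3) computed TMM factors, filterByExpr (minimum 10 counts, 15 in total) and a quasi-likelihood test without covariates, with Benjamini-Hochberg adjustment over 14499 loci and a threshold of 0.05. CPM are relative to the TMM-scaled library size, and the biological coefficient of variation was 0.131. The step was also checked on simulated counts, drawn with the same variation at all loci. Annotation was GENCODE M21, promoter sequences came from RefSeq, and copies of at least 90% identity over 200 bases were found with BLAST 2.17.0. Ratios of counts were compared by exact permutation. Chi-square tests between libraries of the same group gave 9.99 to 73.77 per degree of freedom, above counting noise, so each library was used as a sample. p-values measure the spread between these cultures only.

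The members, lists, tests and alternatives were chosen with earlier results of these data known. Named genes were the 9 members, *Yme1l1*, the 3 tested genes of smallest adjusted p and the gene of highest mean CPM in each neighbour list, and the 5 loci most correlated with *Ass1*; other genes are named as chosen after their values were seen. Alternatives were other scale factors, other filters, DESeq2 1.42.0, voom in limma 3.58.1, a replicate block, a threshold of 0.01, leaving out each library and removing 36 mtDNA loci and copies. Summing counts with near-identical copies was added after seeing the data. Single values of 2 listed neighbours are not reported here, and both are counted in their lists.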

Additional observations from a re-analysis of the deposited data

How the results depend on the processing

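Over the alternatives run, *Ass1* kept its direction and call, with log2 fold changes of 1.27 to 1.41, and so did *Arg2* (3.41 to 3.67), *Got2* (0.71 to 0.82), *Asl* (-0.58 to -0.44) and *Pycr1* (-0.84 to -0.69). *Gpt2* kept its call at an adjusted p under 0.05 (-0.57 to -0.35), and was lost at a threshold of 0.01, which left 2 members lower. Between 3 and 4 members were higher and between 2 and 4 lower. *Yme1l1* ranged from -2.64 to -2.15. *Glud1*, not called in any alternative, changed sign on leaving out the third Scr library (-0.012) or the third Yme1l siRNA library (-0.029), within a range of -0.029 to 0.086 over single libraries left out. *P4ha1* changed sign with upper-quartile factors (0.008), library totals alone (0.055), a filter at a mean of 50 counts (0.021), and on leaving out the first Scr library (0.063) or the third Yme1l siRNA library (0.068), within a range of -0.076 to 0.068 over single libraries left out. In the arginine group the 1 gene called lower, *Slc25a15*, was lost with library totals alone (0), at an adjusted p under 0.01 (0) and on leaving out single libraries (0 to 1). In the aspartate group 7 genes were lower, against 4 with library totals alone, 3 at an adjusted p under 0.01 and 3 to 7 on leaving out single libraries. The cause was not tested. Library totals alone moved the median log2 fold change of all loci to 0.07.

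Replicate numbers are shared by the groups, but no source says that a number marks a shared day or batch. The deviations of same-numbered cultures correlated at 0.04, 0.12 and 0.19. These values are small but all positive, and they cannot show whether the numbers pair the cultures. The main test was run without pairing. In both groups culture 3 differed most from the others. Chi-square per degree of freedom was 73.77 and 57.66 for its pairs in Scr, and 48.93 and 71.6 in Yme1l siRNA. Cultures 1 and 2 gave 9.99 and 27.84. Whether the third cultures share a round was not tested. With the replicate number as a block, 3 members were higher and 3 lower, with a median of 0.02, and *Ass1* had a log2 fold change of 1.34 (adjusted p = 1.81e-05, edgeR); over all loci 4227 were higher and 4460 lower, against 4123 and 4288 without it. Among the 9 members, *Arg2* had the fewest counts, 11 to 13 in Scr libraries.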

Other observations

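The levels of 5 loci followed that of *Ass1* most closely over the 6 libraries, by Pearson's r of log2 CPM among the 11543 loci whose mean log2 CPM reached 1. They were the locus of *Snhg1*, which also holds small nucleolar RNA names (r = 0.9997), *Xylb*, encoding xylulokinase (0.9993), *Trmt10c*, encoding a subunit of mitochondrial RNase P (0.9991), *Cactin* (0.9987) and a locus that joins *Sumo3* and *Ube2g2* (0.9985). These points are 3 Scr and 3 Yme1l siRNA cultures, so a locus with a clear difference between the groups and little spread within them reaches a high r, and 1451 loci had an r above 0.95. None of the 5 is a listed enzyme of these pathways.

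Among pathway neighbours not described above, all named after their values were seen, *Gls2*, a glutaminase gene, had the highest log2 fold change of the glutamine and glutamate group, at 1.71 (SE 0.26, adjusted p = 0.000691, edgeR), from 1.27 ± 0.458 to 4.12 ± 0.443 CPM (SD, n = 3 each). Its exons overlap *Spryd4* on the other strand. *Bcat2*, the mitochondrial branched-chain transaminase, had a log2 fold change of -0.84 (adjusted p = 0.000759, edgeR), opposite in sign to the cytosolic *Bcat1*, and overlaps *0610005C13Rik* on the other strand. *Slc1a3*, a plasma membrane transporter of aspartate and glutamate, had a log2 fold change of 1.47 (adjusted p = 0.00462, edgeR) at 2.59 ± 0.501 CPM after *Yme1l* siRNA (SD, n = 3). Of the aspartate-glutamate carriers of mitochondria, *Slc25a13* had a log2 fold change of 0.37 (adjusted p = 0.00352, edgeR), called in all 16 alternatives run. *Slc25a12* had -0.16 (adjusted p = 0.0493, edgeR), a call lost in 15 of 16 alternatives, with an adjusted p of up to 0.245. It was kept only on summing members with their near-identical copies, which leaves the counts of *Slc25a12* unchanged (adjusted p = 0.0494, edgeR).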
